A study of Homo sapiens with 4 samples.

Results

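The genes described here encode factors that act in elongation by RNA polymerase (Pol) II. They are the genes of SPT6 (*SUPT6H*), the DSIF subunits SPT5 and SPT4 (*SUPT5H*, *SUPT4H1*) and the PAF1 complex subunits (*RTF1*, *PAF1*, *CTR9*, *CDC73*, *LEO1*). The genes of the FACT subunits SPT16 and SSRP1 (*SUPT16H*, *SSRP1*) are included too. All of these genes were chosen by gene name. Of the 10 genes named, 9 are among the 10147 genes of the TT-seq table, and *CDC73* is not listed there. In TT-seq (transient transcriptome sequencing), cells are given the uridine analog 4-thiouridine (4sU) for a few minutes, and the reads come from stretches of RNA made in that time. The cells were K562, a human chronic myelogenous leukemia line, edited so that the endogenous IWS1 protein carries an N-terminal dTAG, a domain through which the dTAG7 ligand sends the protein for degradation. All libraries came from these edited cells, control ones included. Control cells received the solvent DMSO for 1 h, dIWS1 cells received 500 nM dTAG7 for 1 h, and RNA was then labelled with 500 µM 4sU for 5 min. The labels give 2 biological replicates per condition, and all 13 K562 marker genes looked up were listed, against 2 of 10 markers of other blood cells (*LYZ* and *CD33*).

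DSIF clamps nucleic acids onto Pol II and has a part both in pausing near promoters and in processive elongation. SPT6 is a histone chaperone that binds transcribing Pol II and is the partner after which IWS1 (Interacts with SPT6) is named. The PAF1 complex joins through CTR9, its scaffold, carries a PAF1 and LEO1 dimer and the tumor suppressor CDC73 (parafibromin), and includes RTF1, which stimulates Pol II and is needed for ubiquitination of histone H2B. FACT removes and restores histones H2A and H2B as Pol II passes through nucleosomes. TT-seq measures the synthesis of the transcripts of these factors, not the amount or binding of their proteins.

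The deposited table gives a mean normalized count, a log2 fold change (dIWS1/control) and a DESeq2 Wald test per gene. Since whole reads, each scaled by the factor of its library, add up to these means, the reads themselves could be worked back, with a single solution for 10136 of 10136 genes with a mean above 0. Above a mean of 60 the search also used the deposited log2 fold change, and only splits near it were kept. For the 9 listed genes the recovered reads are therefore not independent of that fold change. The reads came from 3 different columns, namely 1 control column that entered the means 2 times and 2 dIWS1 columns. The control is therefore counted as 1 sample, the spread between controls cannot be seen, and p-values that use the deposited standard errors rest on a control entered 2 times. Which dIWS1 replicate is which is not given, and the names column 1 and column 2 are arbitrary. Reads in genes numbered 29832118 in the control column, 20684301 in column 1 and 20886697 in column 2. Over all genes the median log2 fold change was −0.42 (quartiles −0.60 and −0.26). The median gene was at −0.47 in column 1 and −0.37 in column 2, so the typical gene lay below the control, and each gene below is given both as deposited and relative to the median gene. By the study's methods, each replicate of both conditions started from the same number of cells and was treated for 1 h. Synthetic spike-in RNA was then added to the cell lysates. Cell numbers at lysis are not reported, so whether fewer cells, besides less RNA made per cell, had a part in the lower values was not tested.

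In RefSeq (GRCh38.p14) *SUPT6H* spans chr17:28662205-28702679 on the plus strand with 37 exons in the canonical transcript of GENCODE release 44. *SUPT5H* spans chr19:39445582-39476670 (plus strand, 30 exons) and *SUPT4H1*, one of the shortest at 7.02 kb, spans chr17:58345178-58352201 (minus strand, 5 exons). Among PAF1 complex genes, *RTF1* is the longest one listed, at chr15:41417095-41483563 (plus strand, 66.5 kb, 18 exons). *PAF1* is the shortest, at chr19:39385629-39391106 (minus strand, 5.48 kb, 14 exons). *CTR9* lies at chr11:10751246-10779746 (plus strand, 25 exons) and *LEO1* at chr15:51938025-51971778 (minus strand, 12 exons). The FACT genes are both on the minus strand, *SUPT16H* at chr14:21351476-21384019 (26 exons) and *SSRP1* at chr11:57325988-57335892 (17 exons). Exons made up 6.41% (*LEO1*) to 40.2% (*PAF1*) of these spans, so the larger part of each counted region was intronic.

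*CDC73* spans chr1:193122031-193254815 (plus strand, 132.8 kb, 17 exons), and the RefSeq spans of *B3GALT2* and *MIR1278* fall within it. The study's methods removed overlapping genes before counting. Whether this is why *CDC73* is not listed was not tested. *MIR1278* lies on the same strand as *CDC73*, and *B3GALT2* on the opposite strand. Overlaps also occur among the listed genes. The spans of *SUPT5H*, *SUPT4H1*, *RTF1*, *LEO1* and *SSRP1* overlap snoRNA, lncRNA or pseudogene entries of RefSeq, for some of which no strand was found. *PAF1* overlaps a protein-coding gene, on the opposite strand. There, 93.8% of its span lies opposite *SAMD4B*, a gene on the plus strand that is listed too. Reads were counted with respect to strand. The control column held 2524 reads of *SAMD4B*, against 1603 and 1407 in the dIWS1 columns.

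To show where these transcripts start, the 100 bases before the RefSeq start (GRCh38.p14) are given for the pair of genes with the smallest log2 fold changes and the pair with the largest, which are also the 4 of 9 genes with an ETS core motif in their promoter window. Capitals mark matches, on either strand, of 7 motifs searched that lie wholly within the printed stretch.

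CTR9 (chr11:10751146-10751245, plus strand): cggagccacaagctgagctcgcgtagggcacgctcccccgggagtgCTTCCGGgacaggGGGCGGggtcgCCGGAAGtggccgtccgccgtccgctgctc
SUPT4H1 (chr17:58352202-58352301, minus strand): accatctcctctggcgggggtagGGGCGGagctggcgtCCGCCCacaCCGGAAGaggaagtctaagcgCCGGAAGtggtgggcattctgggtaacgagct
SUPT16H (chr14:21384020-21384119, minus strand): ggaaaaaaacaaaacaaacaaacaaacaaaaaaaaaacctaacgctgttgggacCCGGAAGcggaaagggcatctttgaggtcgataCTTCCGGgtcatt
SSRP1 (chr11:57335893-57335992, minus strand): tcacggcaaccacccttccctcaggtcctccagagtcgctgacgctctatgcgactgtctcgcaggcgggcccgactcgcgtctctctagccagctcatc

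The window searched ran from 250 bases before to 50 bases after the start in 9 genes with an entry, and in 27305 RefSeq promoters for comparison. The ETS core (CCGGAAG) matched 2 times each in *CTR9*, *SUPT4H1* and *SUPT16H*. In *SSRP1* the single ETS match lay 21 bases past the start, outside the printed stretch. Of all promoters 10.6% held this motif. The GC box (GGGCGG) matched in 7 of 9 genes, all but the FACT genes, and in 44.4% of all promoters. The NRF1 core (GCGC, any 2 bases, GCGC) matched in *SUPT4H1*, *RTF1* and *CTR9* and in 8.7% of promoters. The YY1 core (AAGATGGCG) matched in *SUPT5H* and in 1.81% of promoters, the CCAAT box (CCAAT) in *PAF1* and *SUPT16H* and in 35.8% (the *SUPT16H* match crosses the start and is therefore not capitalized), and the E box (CACGTG) in *SUPT16H* and in 7.42%. None of the 9 windows held TATAAA, which 12.1% of promoters did. No matches of different motifs overlapped. CpG dinucleotides numbered 18 (*SSRP1*) to 32 (*CTR9*) per window, with a median of 26 against 13 over all promoters. The promoters used for comparison were taken regardless of expression in these cells, whereas the 9 genes had passed an expression filter. A comparison with the promoters of listed genes alone was not made. The motif matches describe letters only, and the ETS core occurs in genes at both ends of the order of changes.

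RNA synthesis was compared between genes in the control column as normalized counts per kb of gene span. The level was highest for the FACT gene *SUPT16H* (129.9 per kb), then *SSRP1* (119.7), *SUPT4H1* (115.6) and *SUPT6H* (109.1). The other genes were lower, namely *LEO1* (48.3), *SUPT5H* (48.3), *CTR9* (43.8), *PAF1* (32.4) and *RTF1* (31.1). The median over 10088 genes with a length was 40.7 per kb. The highest and the lowest level differed 4.17-fold. Within complexes, the FACT genes differed 1.09-fold, the 4 listed PAF1 complex genes 1.55-fold and the DSIF genes 2.40-fold, with *SUPT4H1* above *SUPT5H*. These ratios and the order depend on the length used. Per kb of summed exons of the canonical transcript, the FACT genes differed 2.28-fold, the PAF1 complex genes 9.34-fold and the DSIF genes 1.34-fold, *LEO1* (752.6) came next after *SUPT16H* (953.6), and *SSRP1* (418.8) was below *SUPT6H* (689.5) and *SUPT4H1* (545.8). There is 1 control column, so levels that are close, such as those of *LEO1* and *SUPT5H*, have no replicate check, and the current RefSeq spans may differ from the annotation release used for counting.

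**Figure D1:**
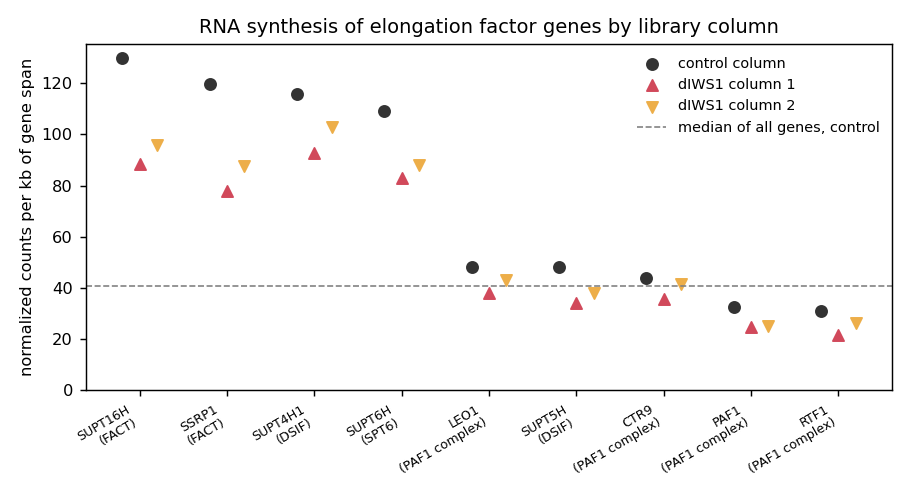
Normalized counts per kb of gene span (vertical axis, starting at 0) for the 9 listed genes, with 1 point for the control column and 1 for each dIWS1 column, and the median of all genes in the control as a dashed line. For every gene the control point is the highest of the 3, and *SUPT16H*, *SSRP1*, *SUPT4H1* and *SUPT6H* stand apart from the others in the control.

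All 9 genes lay below the control in both dIWS1 columns, as did 92.1% of all genes. By the deposited test (DESeq2 Wald, Benjamini-Hochberg adjusted p under 0.05) there were 7 of 9 called lower, beside 74% of all genes, and none was called higher. *CTR9* and *PAF1* were not called. The deposited log2 fold changes ran from −0.53 (*SSRP1*) to −0.19 (*CTR9*) (30.9% and 12.1% below the control), with a median of −0.37. The median was −0.40 in column 1 and −0.31 in column 2. With 1 control column, the spread between libraries in the limma voom fit that follows came from the 2 dIWS1 columns only. Its p-values therefore include no spread between controls. A limma voom fit to the recovered reads, in which the control enters as 1 sample, called 6 of them lower, beside 64.5% of all genes. In that fit *PAF1* passed the threshold and *SUPT4H1* and *LEO1* did not.

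*SUPT6H* had 4458 reads in the control column, 3330 in column 1 and 3279 in column 2. After spike-in scaling these were 4416, 3353 and 3566 normalized counts. Both dIWS1 values were below the control and closer to each other than to it. The log2 fold change was −0.35 (SE 0.08, DESeq2 adjusted p = 1.09e-05), and the single columns gave −0.40 and −0.31. *SUPT6H*, the gene of the direct partner of IWS1, was thus 0.07 above the median gene on the log2 scale, which did not pass the threshold (adjusted p = 0.538, Wald test after recentring, Benjamini-Hochberg adjusted over all genes).

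Both DSIF genes were called lower. *SUPT5H*, which encodes the large subunit that contacts Pol II and RNA, had 1501 normalized counts in the control, 1056 in column 1 and 1181 in column 2. Its log2 fold change was −0.42 (SE 0.09, DESeq2 adjusted p = 1.92e-05), at the median gene to within −0.00044. *SUPT4H1*, which encodes the small zinc-binding partner SPT4, had 812.2, 651.4 and 723.3 normalized counts in the same order. Its log2 fold change was −0.24 (SE 0.11, DESeq2 adjusted p = 0.0339), 0.18 above the median gene (recentred Wald adjusted p = 0.212). The difference between *SUPT4H1* and *SUPT5H* was 0.18 with an SE of 0.14 (1.28 times the SE), and *SUPT4H1* was the higher of the pair in both columns (−0.32 and −0.17, against −0.51 and −0.35 for *SUPT5H*). From counting error alone, the 95% interval (exact binomial) of *SUPT4H1* in column 2 reached from −0.32 to −0.02.

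Of the 4 listed PAF1 complex genes, *RTF1* and *LEO1* were called lower and *CTR9* and *PAF1* were not. For *CTR9* the control column held 1261 reads and the dIWS1 columns 1012 and 1084, or 1249, 1019 and 1179 normalized counts. Its log2 ratio was −0.29 in column 1 and −0.08 in column 2, where the counting interval (−0.20 to 0.04) included 0. The deposited log2 fold change was −0.19 (SE 0.10, DESeq2 adjusted p = 0.0808). It was the smallest change of the 9 genes in the table and in each column. Relative to the median gene *CTR9* was at 0.24, farther above it than any other member (recentred Wald adjusted p = 0.0635). Against the median of its own length class *CTR9* was at 0.16, and *SUPT4H1* was higher against its class, at 0.24.

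*LEO1* had 1629 normalized counts in the control, 1280 in column 1 and 1455 in column 2. The fold change was −0.25 (SE 0.09, DESeq2 adjusted p = 0.0106), 0.17 above the median gene (recentred Wald adjusted p = 0.177). *RTF1* had 2069, 1434 and 1751 normalized counts, and its dIWS1 columns were the farthest apart among the 9 genes, at −0.53 and −0.24. The distance of 0.29 between them compares with a median of 0.16 over the 9 genes. Over the 8900 genes whose mean reached 100, the log2 ratio of column 1 to column 2 had a median of −0.12 and an SD of 0.13. The deposited fold change of *RTF1* was −0.38 (SE 0.10, DESeq2 adjusted p = 0.000325), 0.05 above the median gene (recentred Wald adjusted p = 0.790). Relative to the median gene of each column, *RTF1* was at −0.06 in column 1 and 0.13 in column 2, so its side of the median gene differed between the columns.

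*PAF1* had few reads, 179 in the control column, 135 in column 1 and 127 in column 2. These are 177.3, 135.9 and 138.1 normalized counts. The dIWS1 columns were nearly equal, at −0.38 and −0.36, and both below the control. The log2 fold change of −0.37 was much like that of *RTF1* and *SUPT6H*, but its SE of 0.19 was larger than that of any other member and the call was missed (DESeq2 adjusted p = 0.0643). Relative to the median gene *PAF1* was at 0.05 (recentred Wald adjusted p = 0.877). With the control counted once, limma voom gave −0.37 (SE 0.17, adjusted p = 0.0427).

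The FACT genes had the lowest deposited fold changes of the 9 genes. For *SUPT16H* the control column held 4268 reads and the dIWS1 columns 2860 and 2867, or 4227, 2880 and 3118 normalized counts. Its log2 fold change was −0.50 (SE 0.08, DESeq2 adjusted p = 1.41e-09), a loss of 29.1%. *SSRP1* had 1197, 767 and 797 reads, or 1186, 772.2 and 866.8 normalized counts, and a log2 fold change of −0.53 (SE 0.10, DESeq2 adjusted p = 3.94e-07). The difference between both genes was 0.04 (SE 0.13). In column 1 (−0.55 and −0.62) and in column 2 (−0.44 and −0.45) they were the lowest of the 9 genes. They were also the genes below the median gene in both columns, but only by 0.07 and 0.11 in the deposited values, which did not pass the threshold (recentred Wald adjusted p = 0.553 and 0.461). Against the median of their own length class, *SUPT16H* was at −0.15 and *SSRP1* at −0.05, with *SUPT5H* between them at −0.08.

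**Figure D2:**
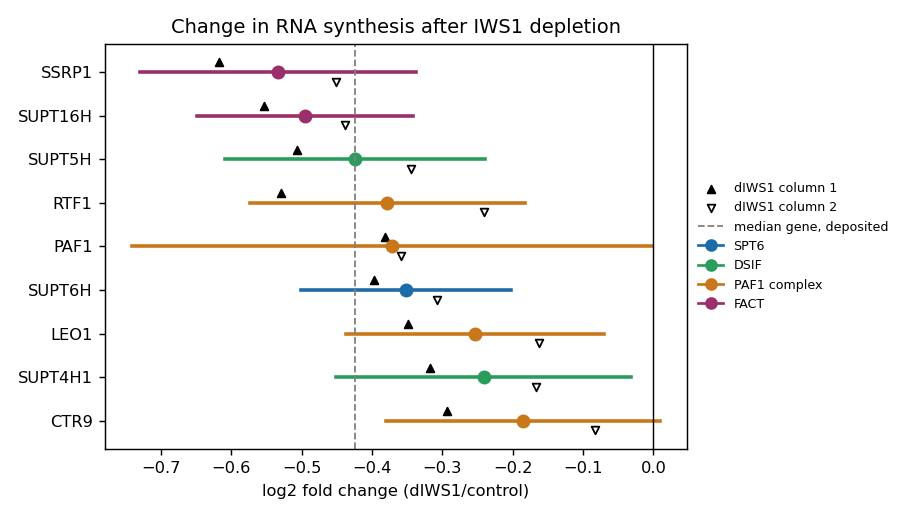
Log2 fold change (dIWS1/control, horizontal axis) of each listed gene, with the deposited value as a circle, its 95% interval (normal, from the deposited SE) as a bar, and the log2 ratios of dIWS1 column 1 and column 2 as triangles. The 9 genes lie between −0.53 and −0.19, the FACT genes at the low end and *CTR9* at the high end, and all bars except that of *CTR9* cross the dashed line of the median gene at −0.42.

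Neighbours in the order of fold changes, from *SSRP1* through *SUPT16H*, *SUPT5H*, *RTF1*, *PAF1*, *SUPT6H*, *LEO1* and *SUPT4H1* to *CTR9*, differed by 0.01 to 0.10, each less than the SE of the difference. The ends of the order, *SSRP1* and *CTR9*, differed by 0.35 (SE 0.14), a pair that was picked for its difference. In each dIWS1 column *SSRP1*, *SUPT16H* and *CTR9* kept their places at the ends, while *RTF1* lay below *PAF1* in column 1 and above it in column 2. Column 1 was below column 2 for all 9 genes, as for the median gene.

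Relative to the median gene, 6 of the 9 genes were above it and 3 below, and their median was 0.05. None was called (recentred Wald adjusted p from 0.0635 to 0.998), beside 12% of all genes called lower and 12.2% called higher. At an unadjusted p under 0.05 there was 1, *CTR9*. limma voom with the control counted once also called 0 (adjusted p from 0.299 to 0.999), beside 4.78% of all genes called lower and 3.01% higher. In both columns 5 genes were above the median gene and 2 below it. The deposited fold changes of 6 genes lay between the quartiles of all genes. *CTR9*, *SUPT4H1* and *LEO1* lay higher, and 84.5% of genes had a lower fold change than *CTR9*.

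**Figure D3:**
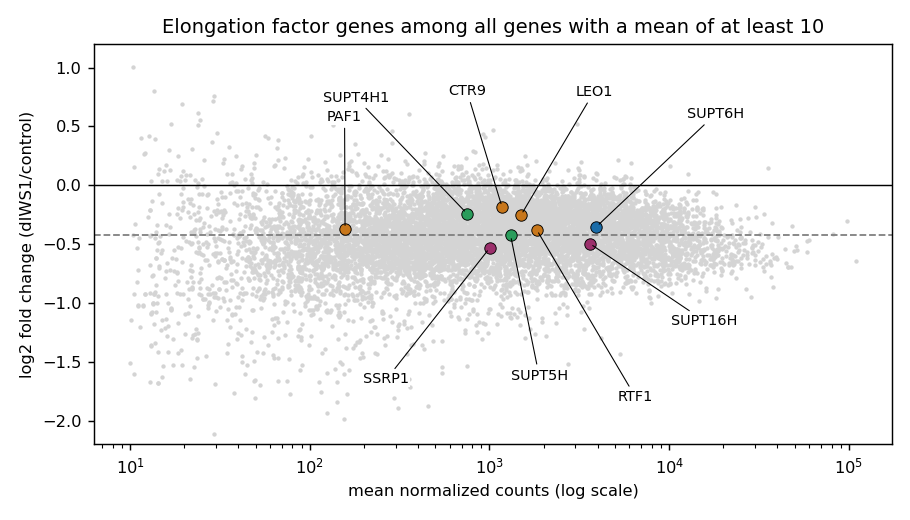
Deposited log2 fold change (vertical axis) against the mean normalized count (log scale), with genes that reach a mean of 10 in grey. Of these, 9909 lie within the plotted range and 8 more lie outside it. The 9 listed genes are coloured by complex (SPT6 blue, DSIF green, PAF1 complex orange, FACT purple). The dashed line is the median gene at −0.42, and the coloured points lie within the dense part of the grey ones, *PAF1* at the lowest mean (157.2).

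The likeness of other genes was measured by the distance between pairs of log2 ratios in columns 1 and 2. Among genes that reach a mean of 1000, with the members and the wider list of elongation genes left out, the nearest to the median pair of the 9 genes (−0.40 and −0.31) were *TMEM38B*, *RPL26* and *CIZ1*, with distances of 0.0030, 0.0036 and 0.0070 over these 2 columns. Such values are common, since 2268 of 4923 genes of this depth (46.1%) had both ratios within the range of the 9 genes. Both ratios share the control column.

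Other genes of elongation and of histone handling during transcription were listed too, chosen with earlier results of these data known. Their range was wider, but this list is also longer. Of 38 such genes, 32 are listed, and 29 of these were called lower in the deposited table, 0 higher, beside 74% of all genes called lower. The 3 not called were *UBE2A*, *NAP1L1* and *SPTY2D1*. The limma voom fit called 23 of the 32 lower, beside 64.5% of all genes. Their median log2 fold change was −0.40, 0.02 above the median gene. For *IWS1* itself, whose protein was depleted, the control column held 3684 reads and the dIWS1 columns 2334 and 2427, with a log2 fold change of −0.55 (SE 0.08, DESeq2 adjusted p = 3.18e-10). Relative to the median gene *IWS1* was at −0.12, which was not called (recentred Wald adjusted p = 0.283). *SKIC8* (listed as *WDR61*), which encodes a further subunit of the human PAF1 complex that also belongs to the SKI complex, was at −0.41 (SE 0.10, DESeq2 adjusted p = 0.000199). *ELOF1*, the gene of a small elongation factor that binds Pol II, was also at −0.41 (SE 0.13, DESeq2 adjusted p = 0.0042). Both were within 0.02 of the median gene. *SETD2*, which encodes the methyltransferase for H3K36me3, was at −0.60 (SE 0.08, DESeq2 adjusted p = 3.95e-12).

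The lowest genes of that list were *DOT1L*, the H3K79 methyltransferase gene, at −0.74 (SE 0.09), and *HIRA*, which encodes a chaperone of histone H3.3, at −0.64 (SE 0.08). Both were called lower than the median gene (recentred Wald adjusted p = 0.0034 and 0.0203). The highest were *SPTY2D1*, which encodes the histone chaperone SPT2, at −0.02 (SE 0.10), and *NAP1L1*, the gene of an H2A and H2B chaperone, at −0.05 (SE 0.07). Both were called higher than the median gene (recentred Wald adjusted p = 0.00104 and 9.78e-06). In columns 1 and 2, *SPTY2D1* was at −0.16 and 0.11 and *NAP1L1* at −0.11 and 0.0076, on opposite sides of the control. *DOT1L* (−0.87 and −0.62) and *HIRA* (−0.73 and −0.56) were below the control in both columns. In total 2 of the 32 genes were called lower and 4 higher than the median gene, beside 12% and 12.2% of all genes. Of the 32, 10 were below *SSRP1* and 3 above *CTR9*. A longer list tends to cover a wider range, so this says little about the genes of SPT6, DSIF, the PAF1 complex and FACT.

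**Figure D4:**
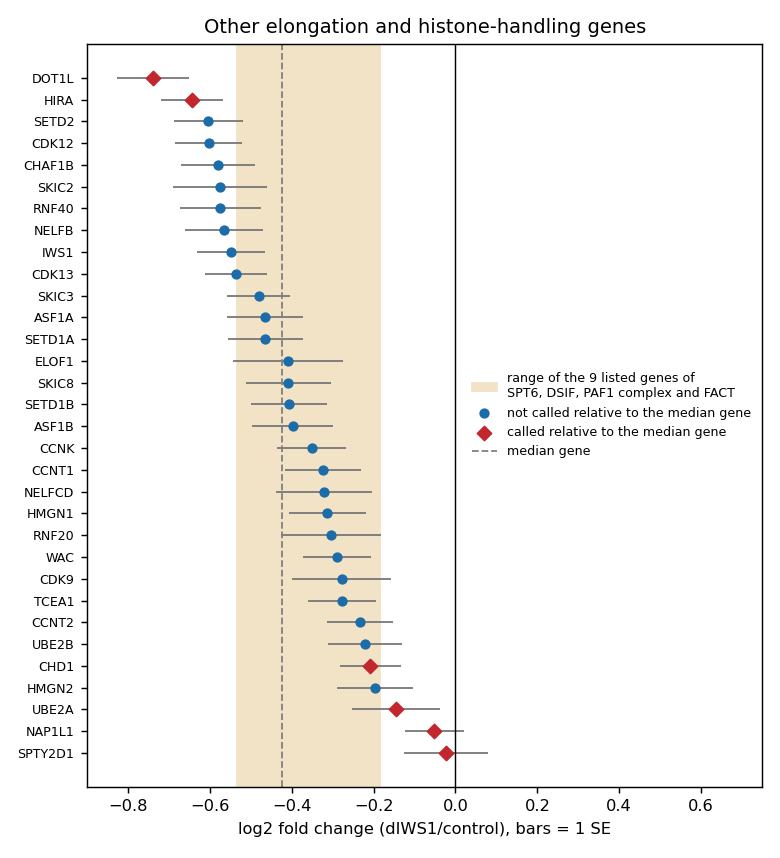
Deposited log2 fold change with 1 SE (horizontal axis) for the 32 listed genes of elongation and histone handling, with the range of the 9 listed genes of SPT6, DSIF, PAF1 complex and FACT as a shaded band and the median gene as a dashed line. Red diamonds mark the 6 genes called relative to the median gene, *DOT1L* and *HIRA* below it and *CHD1*, *UBE2A*, *NAP1L1* and *SPTY2D1* above it.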

How the data were processed

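TT-seq was performed in K562 cells with an N-terminal dTAG on IWS1. Per the labels, RNA was depleted of rRNA and sequenced paired-end from strand-specific libraries. The authors aligned reads with STAR 2.6.0 to GRCh38 with spike-in sequences, kept unique alignments, counted read pairs per RefSeq gene by strand, left out genes that overlap and required an RPK above 10. The authors then ran DESeq2 with spike-in size factors. The deposited table holds a normalized signal per gene (the mean of counts over size factors), the log2 fold change and its log2 standard error, the Wald score, the p-value and the adjusted p-value. The table does not name the direction, which was read as dIWS1/control, as in the study's figure legends.

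Here, reads per column were recovered as whole multiples of 3 steps found among means up to 2. With means shifted by 0.001 to 0.004, 0 of 600 genes could be split. Log2 ratios of single columns used a pseudocount of 0.5 reads, and limma voom (limma 3.58.1, R 4.3.3, with Python 3.11.15, numpy 2.4.6, scipy 1.17.1, pandas 2.3.3, numba 0.67.0, matplotlib 3.10.9) was fitted to 1 control and 2 dIWS1 columns with the spike-in factors. Relative values are fold changes minus the median over 10136 genes, tested with the deposited standard errors and adjusted over all genes. The split and the fit were tested on simulated data. Counting intervals are exact binomial and cover counting error only. At a mean of at least 100 the median standard error was 0.10. Of the 10147 genes, 10098 were matched to RefSeq by symbol, gene number or synonym. Samples were grouped by treatment label, and nothing was compared across other groups. The genes, lists, motifs and tests were chosen with earlier results of these data known. The genes named are all 10 members, 4 fixed genes and the 2 lowest and 2 highest of the wider list, and the 3 nearest by pattern. *CHD1*, *UBE2A*, *SAMD4B*, *B3GALT2*, *MIR1278*, *LYZ* and *CD33* were named after their values were seen. Alternatives were other thresholds, minimum means and changes, scalings, references, single columns and limma voom.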

Additional observations from a re-analysis of the deposited data

How the results depend on the processing

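The 7 genes called lower as deposited became 5 at an adjusted p under 0.01, 9 under 0.1, 7 with a minimum mean of 100 and 6 with limma voom and the control counted once. With a change of at least 0.5 the count was 1 (*SSRP1*). With the scaling moved up by 0.2 on the log2 scale it was 3, moved down by 0.2 it was 9, and scaled by total reads in place of spike-ins (limma voom) it was 0, where 1 gene (*CTR9*) was called higher. In these scalings the shift itself is the cause by construction. The median of the 9 genes was −0.40 without column 2, −0.31 without column 1, 0.0521 recentred on the median gene and 0.0701 with total reads. The mean of the medians of the 2 columns, with no pseudocount, was −0.35. Under total reads 7 genes turned positive: *SUPT6H* (0.0893), *SUPT5H* (0.0163), *SUPT4H1* (0.20), *RTF1* (0.0573), *PAF1* (0.0715), *CTR9* (0.25) and *LEO1* (0.19). Relative to the median gene, *SUPT6H* turned to −0.0092 against its own length class, *SUPT5H* to 0.00031 with limma voom. The length-class reference also changed the order, with *SSRP1* (−0.049) above *SUPT5H* (−0.081) and *SUPT4H1* (0.243) above *CTR9* (0.158). Without column 2 or column 1, *SUPT5H* was at −0.0331 or 0.0264 and *RTF1* at −0.0557 or 0.131. No gene was called relative to the median gene at 0.05 under the alternatives tried, and 1 (*CTR9*) was called higher at an adjusted p under 0.1. Levels per kb of summed exons in place of gene span ranked the genes differently, from 80.6 (*PAF1*) to 953.6 (*SUPT16H*) in the control. No paired analysis was possible because the columns carry no replicate number. *PAF1* had the fewest reads of the 9 genes (179 in the control column) and the largest deposited SE (0.19).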
